A study of Mus musculus with 10 samples.

Results

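Expression of the B cell lineage was followed through 9 genes, Ebf1, Pax5, Vpreb1, Igll1, Cd79a, Cd79b, Blnk, Blk and Cd72, in sorted bone marrow progenitors of mice with or without deletion of Dnmt3a. They were chosen by name as committed B cell genes, and all 9 were found by symbol in both deposited count tables, which together list 46351 genes. The 10 RNA-seq libraries came from 2 populations sorted after lineage depletion from the bone marrow of 12-month-old C57BL/6 mice. The LSK gate (Lin- Sca1+ cKit+) holds stem cells and multipotent progenitors, and the GMP gate (Lin- Sca1- cKit+ CD34+ FcgR+) holds granulocyte-macrophage progenitors, which give rise to myeloid cells. Knockout (KO) mice carried floxed Dnmt3a, which encodes a DNA methyltransferase, and were positive for Mx1-Cre. Control (CTRL) mice carried floxed Dnmt3a without Cre, and both genotypes were given 5 injections of poly(I:C), the interferon inducer that switches Mx1-Cre on. Cre and the deletion therefore go together in the KO groups and cannot be told apart. Mx1-Cre also acts outside the sorted populations, in other blood-forming and interferon-responsive cells. In GMP the libraries were CTRL-346 and CTRL-350 against KO-178, KO-352 and KO-179, and in LSK they were CTRL-1326 and CTRL-1330 against KO-1327, KO-1334 and KO-1333.

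B cells arise in the bone marrow from lymphoid-primed progenitors. The transcription factor EBF1 starts the B cell programme and PAX5 commits cells to it. VPREB1 and the IGLL1 protein (lambda 5) form the surrogate light chain, which pairs with the immunoglobulin heavy chain in the pre-B cell receptor. CD79A and CD79B are the signalling chains of the pre-B cell and B cell receptors, BLK is a SRC-family kinase downstream of them, BLNK is the adaptor that links the receptor to its effectors, and CD72 is a surface coreceptor that dampens the signal. Lineage-positive cells, to which mature B cells belong, were depleted before the sort.

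In GENCODE vM21 (GRCm38) the 2 transcription factor genes lie as follows, Ebf1 (ENSMUSG00000057098) at chr11:44617317-45008091 on the plus strand and Pax5 (ENSMUSG00000014030) at chr4:44524757-44710487 on the minus strand. The surrogate light chain genes are Vpreb1 (ENSMUSG00000059305) at chr16:16868403-16870843 on the minus strand and Igll1 (ENSMUSG00000075370) at chr16:16860671-16863985 on the minus strand. The receptor chains are Cd79a (ENSMUSG00000003379) at chr7:24897381-24902197 on the plus strand and Cd79b (ENSMUSG00000040592) at chr11:106311341-106314762 on the minus strand. The remaining members are Blnk (ENSMUSG00000061132) at chr19:40928927-40994535 on the minus strand, Blk (ENSMUSG00000014453) at chr14:63372836-63417037 on the minus strand and Cd72 (ENSMUSG00000028459) at chr4:43446462-43454628 on the minus strand. All 9 are protein-coding.

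The regions just upstream of 4 members are shown because the regulatory letters searched for were found there, and because Vpreb1 and Igll1, neighbours on chromosome 16, shared the widest excess in 1 LSK library (KO-1327). The sequences are from RefSeq on GRCm38.p6, on the strand of each gene and 5′ to 3′, limited to bases upstream of the start site that lie outside exons of coding transcripts. Capitals mark matches to CAGGTG and CAGCTG (E-boxes, bound by E proteins such as E2A), TGTGGT (the RUNX motif) and GAGGAAGT (a PU.1 motif), on either strand. They lie at chr16:16869256-16869505 on the minus strand for Vpreb1, chr16:16863986-16864235 on the minus strand for Igll1, chr7:24897247-24897380 on the plus strand for Cd79a and chr4:43454629-43454876 on the minus strand for Cd72. The Vpreb1 stretch also overlaps an exon of a noncoding Vpreb1 transcript.
Vpreb1: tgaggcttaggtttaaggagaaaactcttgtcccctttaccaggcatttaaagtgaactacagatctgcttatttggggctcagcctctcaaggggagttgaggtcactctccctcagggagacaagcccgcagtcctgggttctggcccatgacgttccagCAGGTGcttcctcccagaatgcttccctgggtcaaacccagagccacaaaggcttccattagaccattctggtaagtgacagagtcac
Igll1: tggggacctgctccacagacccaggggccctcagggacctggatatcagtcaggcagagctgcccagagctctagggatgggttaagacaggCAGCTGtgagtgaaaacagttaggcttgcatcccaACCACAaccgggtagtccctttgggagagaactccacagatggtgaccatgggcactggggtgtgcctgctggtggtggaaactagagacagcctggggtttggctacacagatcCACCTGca
Cd79a: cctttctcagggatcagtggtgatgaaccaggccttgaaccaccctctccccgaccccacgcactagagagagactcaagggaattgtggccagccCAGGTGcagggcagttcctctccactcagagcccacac
Cd72: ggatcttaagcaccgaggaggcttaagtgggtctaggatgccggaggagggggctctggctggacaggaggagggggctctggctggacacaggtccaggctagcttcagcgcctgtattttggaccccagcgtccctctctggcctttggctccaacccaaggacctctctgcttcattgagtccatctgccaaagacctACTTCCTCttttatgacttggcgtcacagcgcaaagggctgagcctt

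In all, 7 of the 9 members had a promoter entry (250 bases before to 50 after the start site), with 8 promoters between them, and Cd79b and Blk had none. CAGGTG was found in 4 of these 8 promoters, at position -154 in Cd79a, -160 in Blnk, -88 in Vpreb1 and -8 in Igll1, counted from the RefSeq start site. The same letters were found in 20.21% of the 32851 promoters in the table. CAGCTG was found in Igll1 alone among the members, at -158, and in 16.3% of all promoters. The RUNX motif TGTGGT was found in Igll1 at -123 and in an Ebf1 promoter at -12, and in 16.76% of all promoters. GAGGAAGT was found in Cd72 at -49, and in 3.2% of all promoters. The EBF motif was found in none of the 8 member promoters and in 0.9% of all. The 2 E-box searches and the other motifs do not overlap one another in these stretches. A match describes letters in this window and is not evidence of binding.

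Depth was 93850256 to 122658636 gene reads in the GMP libraries and 29533371 to 30437981 in the LSK libraries, so 1 read is worth less in GMP. Levels are given as CPM (reads per 1000000 reads counted on genes in that library). Dnmt3a itself was at 109 ± 11.4 CPM in GMP CTRL (SD, n = 2) and 41.0 ± 21.4 in GMP KO (n = 3), and at 167 ± 2.61 in LSK CTRL and 62.8 ± 5.01 in LSK KO. Its log2 fold change was -1.43 in LSK (adjusted p = 0.000106, edgeR) and -1.5 in GMP (adjusted p = 0.30), where KO-352 was lowest at 17.7 CPM. GMP KO-352 carries a description that refers to LSK data, against its title; the title was followed. Its GMP gate genes (Mpo, Elane, Ctsg and others, 9 in all) summed to 19260 CPM, within the 14780 to 21530 of the other GMP libraries and above the 2149 to 2772 of the LSK libraries. In the LSK table, Xist and Y-linked reads marked CTRL-1326 and KO-1327 as male and the other LSK libraries as female. The labels number the libraries but do not state that they are different animals, so p-values speak only to the spread among them.

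Most members fell into 2 kinds by their level in the populations, and Cd72, Vpreb1 and Igll1 fell into neither. Ebf1, Pax5, Blnk, Blk and Cd79a were under 1 CPM in every GMP library and above 2 CPM in every LSK library. Ebf1, Pax5 and Blk had 0 to 18 reads in a GMP library, Cd79a 7 to 61 and Blnk 19 to 48. In contrast, Cd79b was at 31.9 to 47.4 CPM in every library of both populations. Per kilobase of exon, which allows genes to be compared, the LSK CTRL level was 25.3 CPM for Cd79b, 9.11 for Cd72 and 3.55 for Cd79a. Blnk, Vpreb1, Igll1 and Blk followed at 1.10 to 1.47 CPM per kilobase, Pax5 at 0.899 and Ebf1 at 0.491. In GMP CTRL the levels per kilobase were 24.0 CPM for Cd79b and 2.25 for Cd72, followed by 0.649 for Vpreb1, 0.493 for Igll1 and 0.274 for Cd79a, and the other 4 lay at or below 0.0371. The surrogate light chain genes thus stood above Cd79a in GMP and below it in LSK on this scale. Ebf1, Pax5, Vpreb1 and Cd72 overlap genes on the opposite strand (for Vpreb1, Top3b, and for Cd72, Tesk1), and reads of such partners cannot be told apart from theirs, since no source used here states a strand setting. Vpreb1 also has a near-identical copy, Vpreb2, which makes its count uncertain.

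**Figure D1:**
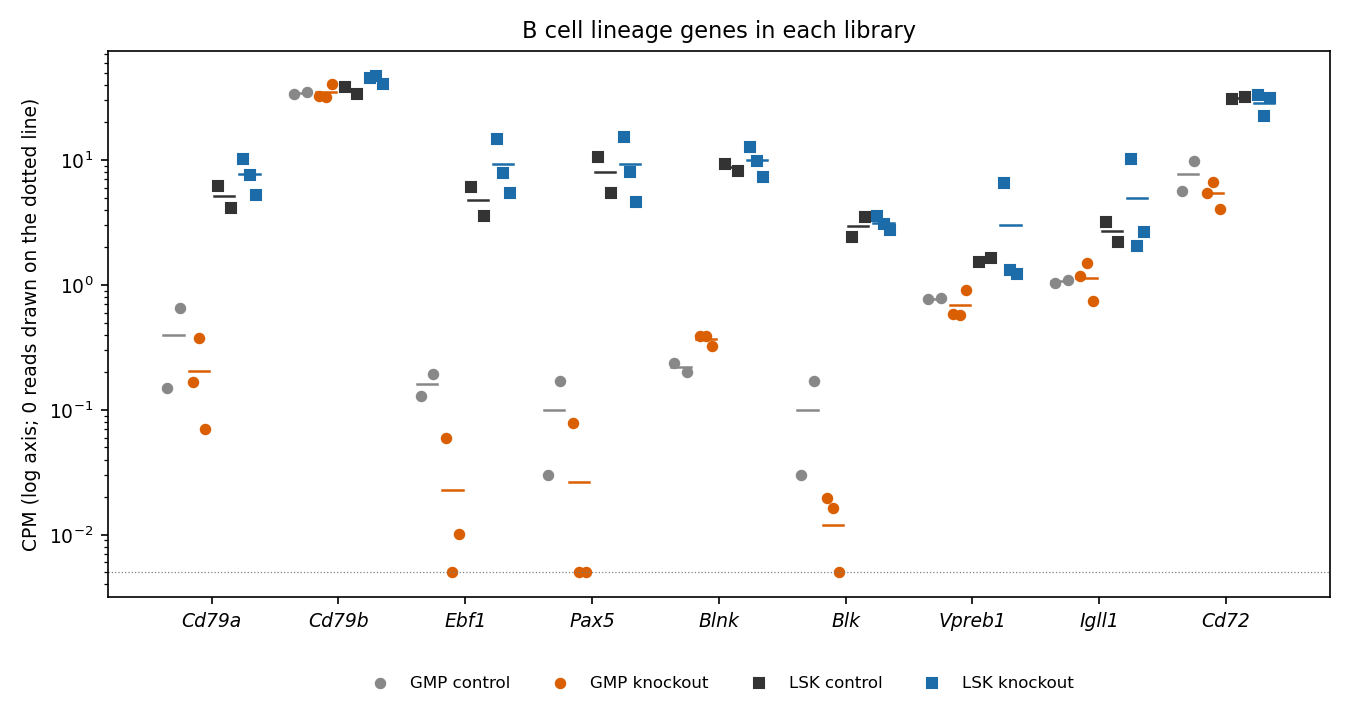
CPM (log axis) of the 9 members in each of the 10 libraries, with bars at the group means and libraries with 0 reads drawn on the dotted line. Ebf1, Pax5, Blnk, Blk and Cd79a lie under 1 CPM in all GMP libraries and above 2 CPM in all LSK libraries, while Cd79b lies between 31.9 and 47.4 CPM throughout.

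The first question was how the members differ between the populations, within each genotype. In CTRL mice 6 of the 9 members were higher in LSK than in GMP (edgeR quasi-likelihood test over 18836 genes, adjusted p under 0.05), against a background of 28.2% of all genes called higher in LSK. In KO mice 8 of 9 were higher, against a background of 30.7%. Pax5 and Blk, called in both genotypes, did not pass the filter on low counts in the GMP libraries alone. They entered this fit through their reads in LSK, where they are high, so their calls are only a description. The median log2 difference of the members was 3.32 in CTRL and 4.38 in KO, beside 0.12 and 0.08 over all genes tested. For 8 of the 9 members, all but Cd79b, every LSK library was above every GMP library of its genotype, as were 56.3% of all genes in CTRL and 49.1% in KO. Population coincides with the count table, its annotation and its depth, so these cannot be told apart from cell type. Scaling between the populations put fitted values below the ratio of the plain CPM (scaling factors were 0.8188 to 0.906 in GMP and 1.103 to 1.182 in LSK). In bulk samples, fewer cells of a type and less RNA per cell cannot be told apart.

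Ebf1, which starts the B cell programme, was at 0.129 and 0.192 CPM in GMP CTRL-346 and CTRL-350 (13 and 18 reads) and at 6.03 and 3.55 CPM in LSK CTRL-1326 and CTRL-1330 (181 and 106 reads). Among the KO mice GMP KO-178 had 6 reads (0.059 CPM), KO-352 had 1 (0.0101 CPM) and KO-179 had 0, while LSK KO-1327 was at 14.7 CPM, KO-1333 at 7.86 and KO-1334 at 5.44. Every LSK library was above every GMP library. The log2 difference was 4.5 ± 0.76 (SE, adjusted p = 0.00064, edgeR) in CTRL and 8.25 ± 0.78 (adjusted p = 8.27e-06) in KO. Pax5, the commitment factor, had 3 and 16 reads in the GMP CTRL libraries (0.0299 and 0.17 CPM) and 8 reads in GMP KO-178, with 0 in KO-352 and KO-179. Its LSK levels were 10.5 CPM in CTRL-1326, 5.40 in CTRL-1330, 15.2 in KO-1327, 7.96 in KO-1333 and 4.57 in KO-1334. The populations did not overlap, and within LSK the highest and the lowest library were both KO. The log2 difference between populations was 5.93 ± 1.07 in CTRL (adjusted p = 0.00096, edgeR) and 8.06 ± 1.01 in KO (adjusted p = 6.13e-05).

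The surrogate light chain genes were measured well above the floor in both populations. Vpreb1 was at 0.767 and 0.789 CPM in GMP CTRL-346 and CTRL-350, and at 0.906 CPM in KO-352, 0.59 in KO-178 and 0.571 in KO-179. The LSK levels were 1.53 and 1.64 CPM in CTRL-1326 and CTRL-1330, 1.32 in KO-1333, 1.23 in KO-1334 and 6.57 in KO-1327. Every LSK library was above every GMP library, yet 4 of the 5 LSK libraries lay within 1.23 to 1.64 CPM. The fitted difference was 0.62 ± 0.72 in CTRL (adjusted p = 0.49, edgeR) and 1.76 ± 0.59 in KO (adjusted p = 0.025). Igll1 was at 1.05 and 1.09 CPM in the GMP CTRL libraries and at 0.745 CPM in KO-352, 1.17 in KO-178 and 1.5 in KO-179. In LSK it was at 3.16, 2.21, 2.03 and 2.65 CPM in CTRL-1326, CTRL-1330, KO-1333 and KO-1334, and at 10.2 CPM in KO-1327. As for Vpreb1, the populations did not overlap and KO-1327 lay apart from the other LSK libraries. The fitted difference was 0.93 ± 0.68 in CTRL (adjusted p = 0.26, edgeR) and 1.74 ± 0.55 in KO (adjusted p = 0.019). Both KO calls were lost without LSK KO-1327, with values of 0.51 for Vpreb1 (adjusted p = 0.26, edgeR) and 0.67 for Igll1 (adjusted p = 0.15). The same 2 genes were the members whose calls depended on 1 LSK library. The Vpreb1 call was also lost with limma-voom (1.36) and without GMP KO-178 (1.67) or KO-179 (1.65).

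The receptor chains Cd79a and Cd79b went separate ways. Cd79a was at 0.149 and 0.65 CPM in GMP CTRL-346 and CTRL-350, and at 0.0705 CPM in KO-352, 0.167 in KO-178 and 0.375 in KO-179. LSK CTRL-1326 was at 6.23 CPM and CTRL-1330 at 4.13, with KO-1327 at 10.2, KO-1333 at 7.52 and KO-1334 at 5.20. All LSK values were above all GMP values, by 3.32 ± 0.75 on the log2 scale in CTRL (adjusted p = 0.0035, edgeR) and 4.83 ± 0.65 in KO (adjusted p = 0.0001). Cd79b was at 33.8 and 34.7 CPM in the GMP CTRL libraries, and at 40.8 CPM in KO-352, 32.3 in KO-178 and 31.9 in KO-179. LSK CTRL-1326 was at 38.7 CPM and CTRL-1330 at 33.6, with KO-1327 at 45.5, KO-1333 at 47.4 and KO-1334 at 40.2. The populations overlapped in both genotypes. The fitted Cd79b difference was -0.33 ± 0.16 in CTRL (adjusted p = 0.11, edgeR) and -0.03 ± 0.13 in KO (adjusted p = 0.84), while its plain CPM means were slightly higher in LSK, so that its direction depends on the scaling. Without KO-352 the CTRL difference of Cd79b passed the threshold (-0.33).

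The adaptor Blnk was at 0.239 and 0.203 CPM in GMP CTRL-346 and CTRL-350 and at 0.322 CPM in KO-352, 0.393 in KO-178 and 0.391 in KO-179. Its LSK levels were 9.36 CPM in CTRL-1326, 8.22 in CTRL-1330, 12.6 in KO-1327, 9.89 in KO-1333 and 7.36 in KO-1334. The populations were far apart, and in LSK the CTRL values lay inside the KO range. Blnk had the smallest adjusted p of the members, with a log2 difference of 4.89 ± 0.35 in CTRL (adjusted p = 2.85e-06, edgeR) and 4.38 ± 0.28 in KO (adjusted p = 5.61e-07). The kinase Blk had 3 and 16 reads in the GMP CTRL libraries and 2 reads each in GMP KO-178 and KO-179, with 0 in KO-352. In LSK it had 73 to 109 reads, or 2.43 to 3.58 CPM, in the 5 libraries. Its log2 difference was 4.48 ± 0.70 in CTRL (adjusted p = 0.00038, edgeR) and 7.43 ± 0.71 in KO (adjusted p = 8.76e-06). The coreceptor Cd72 was at 5.60 and 9.77 CPM in GMP CTRL-346 and CTRL-350 and at 4.02 CPM in KO-352, 5.49 in KO-178 and 6.69 in KO-179. Its LSK levels were 30.5 CPM in CTRL-1326, 31.8 in CTRL-1330, 32.9 in KO-1327, 22.5 in KO-1333 and 31.1 in KO-1334. Cd72 was thus present in GMP, at 399 to 917 reads per library, and was higher in LSK by 1.62 ± 0.27 in CTRL (adjusted p = 0.00057, edgeR) and 2.04 ± 0.22 in KO (adjusted p = 2.38e-05) on the log2 scale. The sizes of the CTRL differences depended on the GMP CTRL libraries where reads were few. Cd79a ranged from 2.67 without CTRL-346 to 4.61 without CTRL-350, Blk from 3.77 to 6.05 and Pax5 from 5.21 to 7.49, and each stayed past the threshold. In KO, Ebf1 was at 7.63 without KO-179 and 10.1 without KO-178, Cd79a at 5.62 and Pax5 at 7.44 without KO-179. Without KO-178 the GMP KO libraries held 0 reads of Pax5, so no fold is given.

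**Figure D2:**
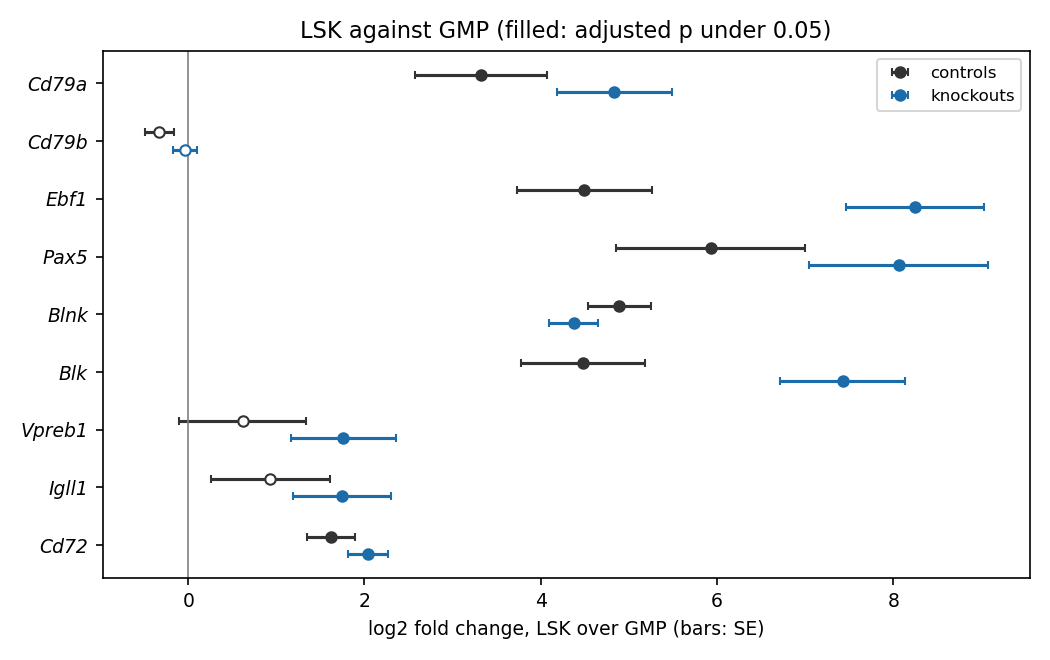
Fitted log2 fold change of LSK over GMP for each member (x axis, bars are SE), in controls and in knockouts, with filled points where the adjusted p was under 0.05. In controls 6 members are filled and in knockouts 8; Cd79b sits at -0.33 and -0.03 and is open in both.

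Other genes of the pathway were read from lists set apart from the members. The lists share some genes, so their counts are not separate from one another. Of 16 B specification and pro-B or pre-B genes, 15 were higher in LSK in CTRL and 16 in KO, with median log2 differences of 3.56 and 4.78. Only 14 of these 16 passed the filter on low counts in the GMP libraries alone. The rest entered the fit through their reads in LSK, where they are high, so their calls are only a description. Bcl11a, a factor of early lymphoid cells, differed by 1.63 ± 0.12 and Foxo1, which acts beside EBF1, by 2.63 ± 0.27 in CTRL (adjusted p = 3.21e-06 and 2.29e-05, edgeR). Of 18 genes of B cell receptor signalling, many of them shared with myeloid cells, 5 were higher and 9 lower in LSK in both genotypes. Over all genes 27.3% were lower in LSK in CTRL and 30.1% in KO, beside the 28.2% and 30.7% that were higher. A share of 5 in 18 is near the background of higher genes, while 9 in 18 is above the background of lower genes. Prkcb, a protein kinase C, fell by 2.51 and Fcgr2b, an inhibitory Fc receptor, fell by 2.79 on the log2 scale from GMP to LSK in CTRL. Of 8 lymphoid-primed progenitor genes, 8 were higher in LSK in CTRL and 7 in KO, with Flt3, the receptor of early lymphoid progenitors, higher by 4.56 ± 0.37 in CTRL.

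Genes of mature and other cell types moved with the population as well, and the shares over all genes just given are the background of each count. In GMP alone the filter on low counts passed 15 of 16 mature B cell, 6 of 7 immunoglobulin constant and 6 of 7 plasma cell genes. It passed 7 of 9 plasmacytoid dendritic cell, 9 of 10 T and NK cell and 5 of 6 erythroid genes. The rest entered this fit through their reads in LSK, so their calls are only a description. Of 16 mature B cell genes tested, 11 were higher and 1 lower in LSK in CTRL, and 12 and 1 in KO. Their summed level in the 14 genes that are not immunoglobulin genes was 160 to 233 CPM in LSK and 95.1 to 146 CPM in GMP. The largest parts of the GMP sum were Cd37, at 50.7 to 67.5 CPM, and Siglecg, at 27.7 to 46.5 CPM. In LSK these were at 43.2 to 70.1 and 9.82 to 18.1 CPM. The sum therefore hides wider differences of genes at low levels, such as Fcmr, at 1.34 to 2.5 CPM in LSK and 0 to 0.0398 in GMP. Fcmr had 7 reads in GMP CTRL and 1 in GMP KO, and did not pass the filter in GMP alone. The 7 immunoglobulin constant genes tested were higher in LSK in 6 cases in CTRL and 5 in KO. As summed CPM the immunoglobulin constant genes reached 883 to 1400 in LSK and 90.2 to 137 in GMP. Ighm, of IgM, was at 312 to 572 CPM in LSK and, as the largest part of the GMP sum, at 48.2 to 122 CPM in GMP. Igha, of IgA, was at 267 to 598 CPM in LSK and 0.0299 to 46.7 in GMP. Igkc, the kappa light chain, was at 206 to 380 CPM in LSK and 0.846 to 27.5 in GMP. Of 7 plasma cell genes, 4 were higher and 1 lower in CTRL and 6 and 1 in KO. Jchain, the joining chain of secreted antibodies, was at 154 to 308 CPM in LSK and at 0.329 to 32.1 CPM in GMP. The B cell surface marker Ms4a1 (CD20) was at 4.09 to 8.57 CPM in LSK and at 0.00983 to 1.06 CPM in GMP. Its LSK CTRL level per kilobase of exon was 0.818 CPM. This was below the 3.55 of Cd79a and lay between Pax5 at 0.899 and Ebf1 at 0.491. Plasmacytoid dendritic cell genes were higher in 5 and lower in 1 of 9 in CTRL and in 6 and 1 in KO, T and NK cell genes in 8 and 1 of 10 in CTRL and 5 and 2 in KO, and erythroid genes were higher in 5 of 6 in both. Of the defining T and NK markers Cd3e and Ncr1 were at 0 in GMP CTRL. Cd3e reached 0.558 CPM at most in LSK, and Ncr1 reached 0.492 CPM in GMP KO-178. Other genes of that list were present in LSK, with Lck at 20.2 to 32.6 CPM, Cd4 at 3.29 to 6.46 and Cd8a at 1.8 to 3.83. In GMP these were at 1.42 to 2.77, 0.12 to 3.95 and 0 to 0.309 CPM. Nkg7 went the other way, at 92.7 to 126 CPM in LSK and 248 to 415 in GMP. The part of these cell types in the members' levels was not tested.

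The second comparison was KO against CTRL within GMP. Pax5 and Blk, with 27 and 23 reads over the 5 GMP libraries, did not pass the filter on low counts, so 7 of the 9 members were tested. With edgeR 0 of 7 passed, against a background of 0.0347% of all genes (6 of 17290), and 1 had an unadjusted p under 0.05 beside 13.8% of all genes. DESeq2, which gave Ebf1 no adjusted p, and limma-voom also called 0. The median of the 7 was -0.24 on the log2 scale beside 0.01 over all genes. The lowest p was that of Ebf1, with a log2 fold change of -2.85 ± 1.12 (adjusted p = 0.35, edgeR), on 31 reads in the CTRL and 7 in the KO libraries. Values for the others were -0.99 ± 0.82 for Cd79a, -0.57 ± 0.29 for Cd72, -0.24 ± 0.38 for Vpreb1, -0.04 ± 0.15 for Cd79b, 0.02 ± 0.37 for Igll1 and 0.66 ± 0.44 for Blnk. Among the 9 members KO and CTRL values did not overlap for Blnk (KO higher), Ebf1 and Blk (KO lower), where 21.6% of all genes were fully higher and 12.3% fully lower. A share of 1 and 2 in 9 is near that background. Without CTRL-350 the Cd79a value was 0.29.

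CTRL-350 was the highest GMP library for 5 of the 9 members. These were 4 of the 6 members with a mean under 1 CPM (Cd79a, Ebf1, Pax5 and Blk), where it was highest for 23.5% of the 6388 GMP genes from the lowest member's mean up to that level. Of the 3 members at 1 CPM or more it was highest for 1, Cd72, beside 21.19% of the 12140 GMP genes at that level. It was also highest for 8 of 16 specification genes and 8 of 16 mature B cell genes. Rag1, which cuts antigen receptor genes, had 3 reads in the 3 KO and 112 reads in the 2 CTRL libraries, a CTRL to KO ratio of 62.2 (95% exact interval 20.7 to 306, counting error only). Most of the CTRL reads came from CTRL-350, at 0.991 CPM against 0.189 CPM in CTRL-346. The fitted log2 fold change of Rag1 was -5.81 ± 1.07 (adjusted p = 0.24, edgeR), and -4.30 without CTRL-350. Rag1 passed with DESeq2 (-5.97, adjusted p = 0.0012), with no filter on low counts (adjusted p = 0.041, edgeR), in the fit of all 10 libraries (0.041) and with a term for reads outside genes (0.027), but not with limma-voom, with other scalings or without any 1 library. Of the 14 specification genes tested in GMP 0 passed, 10 had negative and 4 positive values, and their median was -0.48. The 8 lymphoid-primed progenitor genes leaned the other way, with 6 positive and 2 negative values, a median of 0.43 and 0 passed. Flt3 was at 12.7 and 20.7 CPM in CTRL-346 and CTRL-350, against 71.0, 89.7 and 161 CPM in KO-352, KO-178 and KO-179. Its log2 fold change was 2.62 ± 0.38 (adjusted p = 0.19, edgeR), and it passed with DESeq2 (2.61, adjusted p = 4.93e-12). Of the 7 immunoglobulin constant genes measured in GMP, KO-179 was the highest library for 4, KO-178 for 2 and CTRL-350 for 1, Ighm. Ighm, the heavy chain of IgM and the most abundant of them, was at 122 CPM in CTRL-350 and lowest, at 48.2 and 53.2 CPM, in KO-178 and KO-179, with a log2 fold change of -0.78 ± 0.28 (adjusted p = 0.34, edgeR). Igha, the constant gene of IgA, was at 24.8 and 46.7 CPM in KO-178 and KO-179, against 0.0299, 5.06 and 2.29 CPM in CTRL-346, CTRL-350 and KO-352. Igkc, the kappa light chain, was at 13.3 and 27.5 CPM in KO-178 and KO-179 and at 0.846 to 5.05 CPM in the other 3. KO-178 and KO-179 were thus the highest GMP libraries for Igha and Igkc, while CTRL-350 was the highest for Ighm, Ebf1 and Pax5. Over GMP genes at 1 CPM or more KO-179 was highest for 30.49% and KO-178 for 15.35%. From the lowest member's mean up to that level the shares were 32.89% and 24.41%. KO-179 and KO-178 were also highest for 5 and 3 of 10 T and NK cell genes, and for 1 and 3 of 6 erythroid genes. The part of these patterns in the members' values was not tested. Reads outside annotated genes made 10.25% in KO-352, 15.51% in KO-178 and 16.05% in KO-179, and 8.5% in CTRL-346 and 14.17% in CTRL-350. With that share as a term 0 members passed as well.

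The third comparison was KO against CTRL within LSK, where all 9 members were tested. With edgeR 0 of 9 passed, against a background of 0.0232% of all genes (4 of 17238), and 1 had an unadjusted p under 0.05 beside 2.83% of all genes. DESeq2 and limma-voom also called 0. Of the 9, 8 had positive values and the median was 0.28 beside 0.003 over all genes. Ebf1 had the lowest p, with 0.94 ± 0.40 (adjusted p = 0.9998, edgeR), its KO and CTRL values overlapping. Vpreb1 was at 0.92 ± 0.68, Igll1 at 0.86 ± 0.61, Cd79a at 0.55 ± 0.30 and Cd79b at 0.28 ± 0.13. Pax5 was at 0.20 ± 0.45, Blnk at 0.16 ± 0.23, Blk at 0.07 ± 0.26 and Cd72 at -0.13 ± 0.16. Cd79b was the 1 member whose KO values (40.2 to 47.4 CPM) lay fully above its CTRL values (33.6 and 38.7 CPM), where 9.01% of all genes did so. Without KO-1327 the values were -0.37 for Pax5, -0.34 for Vpreb1, -0.22 for Igll1, -0.05 for Blnk and -0.05 for Blk, and 0.45 for Ebf1. Leaving out that library thus turned the sign of 5 of the 8 positive values. Pax5 also turned negative without CTRL-1330 (-0.22), and Blk without CTRL-1326 (-0.15). With sex as a term 0 members passed, and Ebf1 was at 1.06 (adjusted p = 0.54, edgeR).

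**Figure D3:**
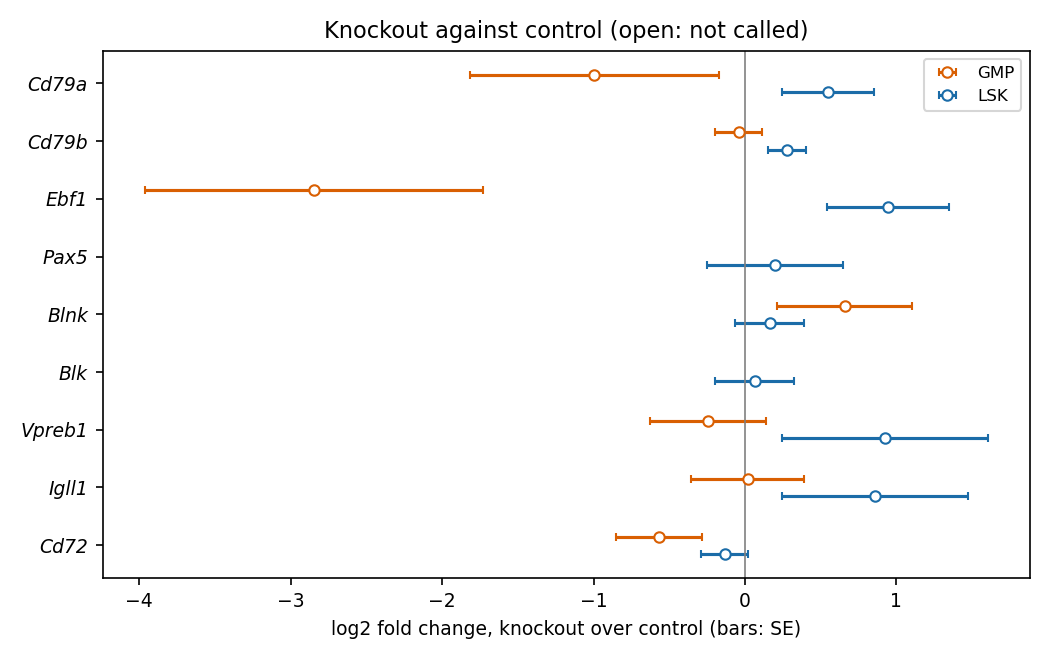
Fitted log2 fold change of knockout over control for each member (x axis, bars are SE) in GMP and LSK; Pax5 and Blk were not tested in GMP. All points are open, none having an adjusted p under 0.05, and the farthest from 0 is Ebf1 in GMP at -2.85.

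The difference of the KO effects between populations (LSK minus GMP) was then tested for the 9 members in the fit of all 10 libraries. With edgeR 0 of 9 passed, against a background of 0.0265% of all genes (5 of 18836), and 2 had an unadjusted p under 0.05 beside 10.1% of all genes. These were Ebf1, with 3.75 ± 1.05 (adjusted p = 0.34, edgeR), and Blk, with 2.95 ± 0.97 (adjusted p = 0.41). DESeq2 called Ebf1 (3.87, adjusted p = 0.0057) and no other member. Both rest on few reads in GMP KO, 7 for Ebf1 and 4 for Blk. The remaining members ranged from -0.52 ± 0.40 for Blnk to 2.13 ± 1.42 for Pax5.

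KO-1327 stood apart from the other LSK libraries in these genes, which was seen after the values were known and is given as a description. It was the highest LSK library for 8 of the 9 members, Cd79b being the exception, whereas it was highest for 18.44% of the 14021 LSK genes at 1 CPM or more. Its level was 4.0 times that of the next library for Vpreb1 and 3.21 times for Igll1, then 1.87 times for Ebf1, 1.45 for Pax5, 1.36 for Cd79a and 1.28 for Blnk. For Blk and Cd72 the ratio was 1.03. Cd79b was at 45.5 CPM in KO-1327, below the 47.4 CPM of KO-1333. Among the other 8 members, the 2 surrogate light chain genes, which mark pro-B and early pre-B cells, were thus farthest from the next library. The kinase and coreceptor were the nearest.

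The same library was highest for 13 of 16 specification genes and 7 of 8 lymphoid-primed genes. These lists share Rag1, Dntt and Il7r, which were all highest in it. Rag1 was at 36.2 CPM in KO-1327 and at 18.1, 11.7, 14.0 and 12.8 CPM in CTRL-1326, CTRL-1330, KO-1333 and KO-1334. Dntt, the polymerase that adds bases at antigen receptor joints, was at 629 CPM in KO-1327 and at 404 to 446 CPM in the other 4. KO-1327 was highest for 4 of 17 mature B cell genes, 2 of 10 immunoglobulin constant genes and 1 of 7 plasma cell genes. The mature B cell and immunoglobulin constant lists share Ighm, Ighd and Igkc. The 4 mature B cell genes were Cr2 (5.32 CPM), Fcer2a (2.99 CPM, with 2.95 in KO-1333), Ighd (7.06 CPM) and Cd40 (0.854 CPM), while Ms4a1 was at 6.64 CPM there and at 8.57 CPM in KO-1333. As the median log2 ratio to the mean of the 5 LSK libraries, the members stood at 0.62 in KO-1327, the specification genes at 0.45, the mature B cell genes at 0.15, the plasma cell genes at -0.21 and the immunoglobulin constant genes at -0.56. Its Dnmt3a level of 63.8 CPM was between those of KO-1333 (57.3 CPM) and KO-1334 (67.1 CPM). By Xist and Y-linked reads KO-1327 was the only male KO library in LSK, and CTRL-1326 was the other male library. CTRL-1326 was next highest for Rag1, Dntt, Igll1 and Pax5. For the remaining members led by KO-1327 the next was KO-1333 (Cd79a, Ebf1 and Blnk) or CTRL-1330 (Vpreb1, Blk and Cd72). What set this library apart was not tested.

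**Figure D4:**
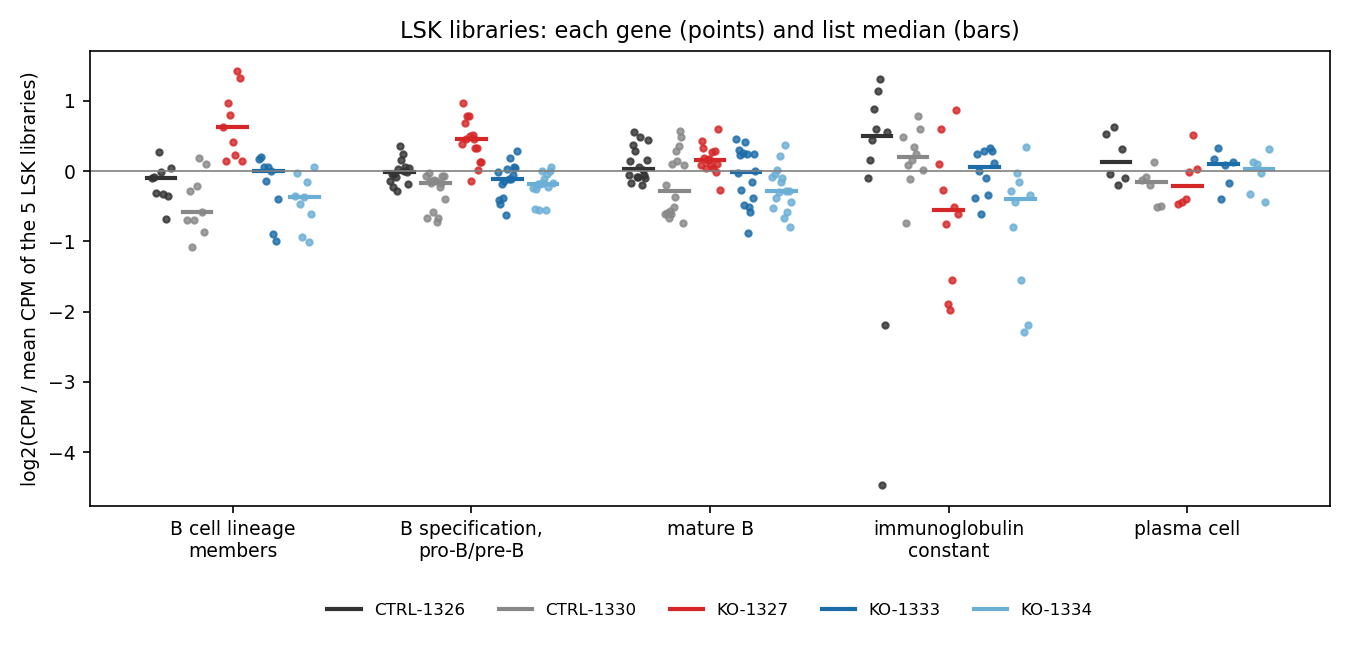
Log2 ratio of each gene's CPM to its mean over the 5 LSK libraries (y axis), for the members and 4 other lists, with points for genes at 1 CPM or more on average and bars for the list median in each library. KO-1327 has the highest bar for the members (0.62), the specification genes (0.45) and the mature B cell genes (0.15), and the lowest for the immunoglobulin constant genes (-0.56).

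Genes whose pattern was most like that of the members were taken over the 10 libraries, after centring log2(CPM + 1) on the mean of each population and comparing with the mean of the 9 members among 11639 genes. The 5 nearest were Akap12, a kinase scaffold (Pearson r = 0.90, Spearman rho = 0.58), Cd48, a SLAM-family surface receptor (0.87 and 0.82), Sdr42e1 (0.87 and 0.60), Rsl1 (0.87 and 0.62) and Btbd7 (0.84 and 0.67). Without KO-1327 and CTRL-1330, the libraries farthest from the median, r was 0.52 for Akap12, 0.77 for Cd48, 0.08 for Sdr42e1, 0.59 for Rsl1 and 0.56 for Btbd7. The likeness of Sdr42e1 therefore rested on those libraries. Points of 1 population share a count table and similar depth, and the 5 genes were picked for their r among all compared, so the values are descriptions.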

How the data were processed

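Total RNA, depleted of ribosomal RNA and prepared with a stranded kit per the labels' protocols, was sequenced from 5 GMP and 5 LSK libraries, 3 KO and 2 CTRL in each. The deposited raw tables give the authors' read counts for each Ensembl gene. The submitters' processing notes name STAR, HTSeq 0.5.3p3, DESeq 1.18.0, DESeq2 1.4.5 and the builds mm10 and GRCm38, without roles. No source used here gives an annotation release or strand setting. In the deposited normalized tables the signal is the count over 1 size factor per library, used as an alternative scaling. The tables list 38924 genes (GMP) and 45513 (LSK), with 38086 in both. Reads outside annotated genes, 8.5% to 16.05% of those listed in GMP, were left out.

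The main test was edgeR 4.0.16 in R 4.3.3 with filterByExpr (minimum count 10), TMM and the two-sided quasi-likelihood test, with Benjamini-Hochberg adjustment over all genes tested and a threshold of 0.05. KO and CTRL were compared within each population. LSK against GMP, and the difference of KO effects, came from 1 fit of all 10 libraries over the shared genes. SE is the size of a log2 fold change over the square root of F. CPM is plain, without TMM. Lengths and coordinates are from GENCODE vM21. The fits were tested on simulated counts. Alternatives were RLE and the authors' size factors, no filter, DESeq2 1.42.0, limma-voom (limma 3.58.1), a joint fit, a term for sex or for reads outside genes, and leaving out each library.

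The members, the 11 other lists and the motifs were chosen with earlier results of these data known. Beyond the members the text names up to 2 genes per list and comparison by p, the 3 most abundant and the absent markers of other cell types, Dnmt3a and the 5 genes most like the members. Dntt, Rag1, Cr2, Fcer2a, Ighd and Cd40 in LSK and Ms4a1 were named after their values were seen. A gene that this rule names is not reported here. No libraries agreed within sampling noise. Intervals cover counting error only.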

Additional observations from a re-analysis of the deposited data

How the results depend on the processing

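The number of members called was 0 in both KO comparisons under every alternative run. In LSK against GMP, leaving out 1 library gave 6 to 7 members in CTRL and 6 to 8 in KO, the 6 being without KO-1327. In the difference of KO effects DESeq2 called 1 member, and the cause was not tested. None of the values that turned sign was called. In GMP KO against CTRL, leaving out 1 library gave -1.76 (without KO-179) to 0.29 (without CTRL-350) for Cd79a, -0.18 (without KO-352) to 0.034 for Cd79b and -0.22 to 0.24 for Igll1. Cd79b was at 0.074 with a term for reads outside genes, and Igll1 at -0.22 with that term and -0.013 with limma-voom. In LSK KO against CTRL the ranges were -0.37 to 0.79 for Pax5, -0.047 to 0.35 for Blnk, -0.15 to 0.32 for Blk, -0.34 to 1.31 for Vpreb1, -0.22 to 1.23 for Igll1, -0.24 to 0.014 for Cd72 and -0.18 to 0.85 for Rag1. The lowest value was the one without KO-1327 in each of these but Blk, whose lowest was without CTRL-1326. For LSK against GMP in KO, Cd79b ranged from -0.10 to 0.13. The difference of KO effects ranged from -0.11 to 1.52 for Vpreb1 and from -0.27 to 1.17 for Igll1. Cd79b was called lower in LSK than in GMP in CTRL without KO-352 (-0.33).

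Counts over all genes moved more than those of the members. GMP KO against CTRL called 6 genes with edgeR, 703 with DESeq2, 0 with limma-voom, 50 with no filter, 182 in the joint fit, 203 with a term for reads outside genes and 172 without KO-352 (1 to 4 without each other library). LSK called 4, against 19 with DESeq2, 27 with no filter, 0 in the joint fit, 11 without CTRL-1326 and 7 without KO-1333. The difference of effects called 5, against 214 with DESeq2, 38 with no filter, 2 with limma-voom, 15 without KO-179, 513 without KO-352, 3 without KO-178 or KO-1333 and 1 without CTRL-346, CTRL-1326, CTRL-1330 or KO-1334. Of the 16 specification genes 0 passed in GMP KO against CTRL with edgeR, 2 with DESeq2 and 4 with the term for reads outside genes. Dnmt3a was called in GMP without KO-352 (-1.15) and was not called in LSK in the joint fit (-1.44).

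No paired analysis was possible because the groups share no replicate numbers. In GMP, Pax5, Blk and Ebf1 had at most 18 reads in any library, which limits precision. With 2 CTRL libraries per population, a value that misses the threshold does not show that levels were alike.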
